A study of Homo sapiens with 6 samples.

Results

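The ADAM proteases are zinc metalloproteinases anchored in the cell membrane that cut the outer parts of other membrane proteins free, a step called ectodomain shedding, and so release growth factors, cytokines and adhesion molecules. Their RNA was examined in TPC1, an established human papillary thyroid cancer cell line, through 8 genes picked by symbol from a deposited table of 58735 genes: ADAM8, ADAM9, ADAM10, ADAM12, ADAM15, ADAM17, ADAM19 and ADAMTS1. The family was picked because ADAM19 was among the genes already seen to differ between the groups of this experiment. The contrast between the groups is therefore a description for the 8 genes. The intervals rest on the spread between libraries, partly pooled over genes of similar level. Neither they nor the calls of the fit across all genes are evidence about these genes. In 3 libraries the cells had received si-circ_0000839, an siRNA that targets the circular RNA hsa_circ_0000839. In the other 3 libraries they had received NC, negative-control siRNAs. All cells were TPC1 grown in DMEM and were transfected for 60 h. The circular RNA itself was not matched in the gene table, so its depletion was not checked. Whether the 3 libraries per group are separate cultures is not in the labels. A p-value therefore rests only on spread between these libraries, partly pooled over genes of similar level, and this spread may be technical.

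ADAM proteases are made as inactive precursors whose prodomain is removed in the secretory pathway, in most members by furin-type convertases. Behind the catalytic domain lie a disintegrin domain, which can bind integrins, and in most members a cytoplasmic tail with sites for SH3-domain proteins. ADAM10 and ADAM17 are the best-known sheddases, ADAM10 for Notch and the amyloid precursor protein and ADAM17 for tumour necrosis factor and ligands of the EGF receptor. ADAMTS1 differs from the others in being secreted, with thrombospondin repeats in place of a membrane anchor, so the name sheddase fits it only loosely.

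The libraries held 18399558 to 19334633 reads that could be recovered from the FPKM values (reads scaled to gene length and a library total). That total was 0.958 (NC replicate 2) to 1.02 (NC replicate 3) times the recovered reads, so it differed from them by library. PAX8, a thyroid lineage factor, averaged 96.3 ± 5.26 FPKM after si-circ_0000839 and 95.8 ± 2.21 FPKM in NC (SD, n = 3 each). Of 8 thyroid lineage markers, 3 averaged at least 1 FPKM and 4 had 0 reads in every library, SLC5A5, TSHR and NKX2-1 among them. Among markers of other cell types, the 7 fibroblast markers summed to 14.5 to 19.1 FPKM after si-circ_0000839 and 20.1 to 25.2 FPKM in NC, nearly all of it LUM (limma adjusted p = 0.108), while DCN and COL1A2 had at most 1 read. The 6 leukocyte markers summed to 207.0 to 225.1 FPKM and 208.5 to 214.1 FPKM, nearly all of it LCP1, with PTPRC and CD3E at 0 reads. Mitochondrial genes took 1.33% to 1.37% of the reads after si-circ_0000839 and 1.38% to 1.60% in NC, so these ranges did not overlap. The part of these markers and of the mitochondrial share in the results was not tested. The 5 endothelial markers stayed at or under 0.164 FPKM in sum. In such bulk RNA, fewer cells that express a gene and less of its RNA per cell cannot be told apart. The fit across all genes took the 10674 genes whose mean reached 1 FPKM, and was limma on log2(FPKM + 1) with Benjamini-Hochberg adjustment. It called 41 genes at an adjusted p under 0.05, which is 0.384% of those tested, with 14 of them, 0.131%, higher after si-circ_0000839 and 27, 0.253%, lower. Leaving out 1 library gave 20 calls for si-circ_0000839 replicate 1, 21 for si-circ_0000839 replicate 3 and 21 for NC replicate 3.

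The protease genes covered a wide range of levels, with 3 of them carrying most of the FPKM. In NC, ADAM15 was the most abundant at 65.7 ± 9.27 FPKM, then ADAM9 at 24.1 ± 3.01, ADAM19 at 11.8 ± 0.482, ADAMTS1 at 8.38 ± 0.783, ADAM17 at 3.39 ± 0.175, ADAM10 at 3.08 ± 0.395, ADAM8 at 2.19 ± 0.152 and ADAM12 at 0.499 ± 0.161 FPKM (SD, n = 3). In that order the ranges of ADAM17 and ADAM10 overlapped across the NC libraries and those of the other neighbours did not. After si-circ_0000839, ADAM19 at 20.1 ± 1.35 FPKM and ADAM9 at 19.5 ± 2.01 FPKM had overlapping ranges. So did ADAM10 at 2.98 ± 0.230, ADAM8 at 2.92 ± 0.119 and ADAM17 at 2.71 ± 0.216 FPKM. Among the levels of all tested genes, ADAM15 lay at the 93.2 percentile, ADAM9 at 79.0, ADAM19 at 72.7, ADAMTS1 at 59.9 and ADAM8, the lowest, at 23.9. ADAM12, at a mean of 0.554 FPKM, was the only member under the limit of 1 FPKM and was not tested.

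**Figure D1:**
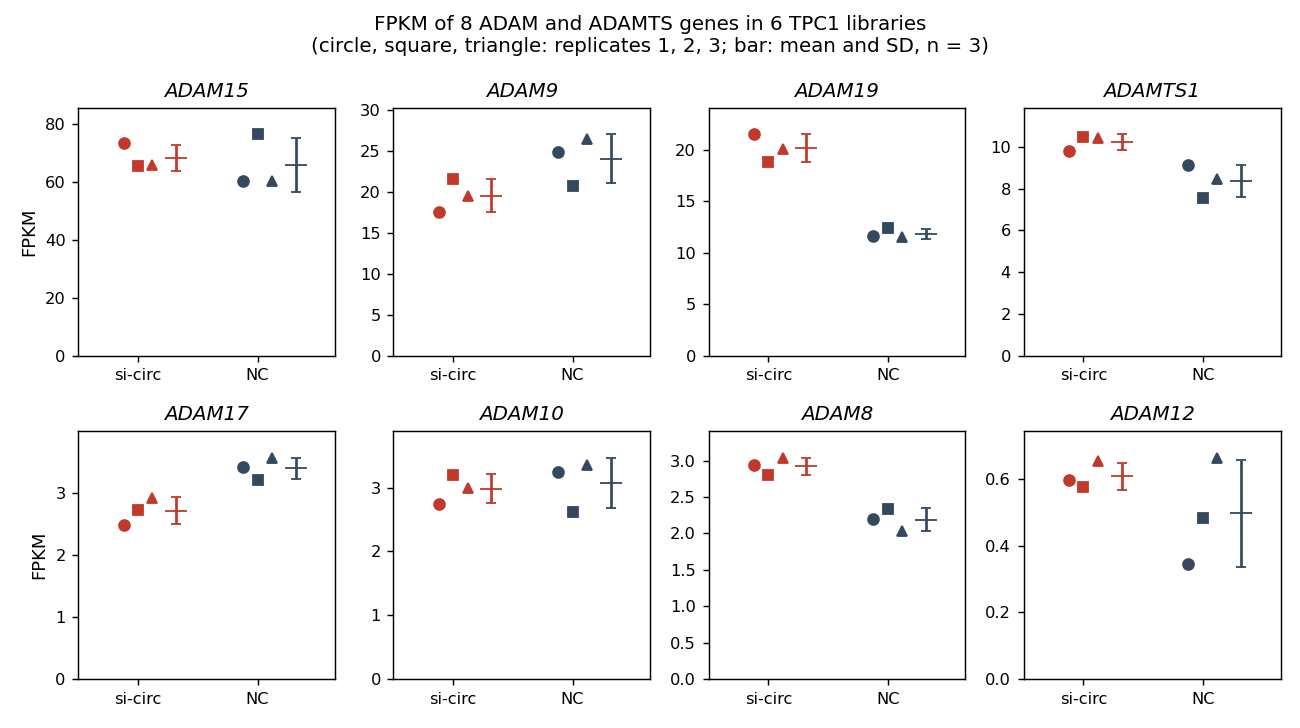
FPKM (vertical axis, from 0, a scale of its own for each gene) of the 8 genes in the 3 si-circ_0000839 libraries, red, and the 3 NC libraries, dark blue, with replicates 1, 2 and 3 as circle, square and triangle and the mean with its SD beside them. All si-circ_0000839 libraries lay above all NC libraries for ADAM19, ADAM8 and ADAMTS1 and below them for ADAM17.

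ADAM19, also called meltrin beta, is a membrane protease known in mice for processing neuregulins and for a part in heart development. It had 21.5, 18.8 and 20.1 FPKM in si-circ_0000839 replicates 1, 2 and 3, against 11.6, 12.4 and 11.5 FPKM in NC replicates 1, 2 and 3. The lowest si-circ_0000839 library stood above the highest NC library by a wide margin. The ratio of the group means was 1.70, and on the log2(FPKM + 1) scale, which understates changes of low genes, the difference was 0.72 with a 95% interval of 0.56 to 0.88. These values rested on 2845 to 3038 reads per library after si-circ_0000839 and 1687 to 1732 reads in NC. The spread within a group was small, with a coefficient of variation of 6.70% after si-circ_0000839 and 4.08% in NC.

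ADAM19 (ENSG00000135074) lies on the minus strand of chromosome 5 from 157395534 to 157575775 (GRCh38). It was counted over 7704 exonic bases. Its span touches 5 other genes of the table, and only CYFIP2, on the opposite strand, shares exonic bases with it, 62 in all. CYFIP2, a subunit of the WAVE actin regulator, had 5.62, 5.19 and 5.30 FPKM after si-circ_0000839 and 5.08, 5.04 and 5.01 FPKM in NC. NIPAL4, on the other strand and with no exonic base in common, averaged 9.67 reads per library after si-circ_0000839 and 10.0 reads in NC. The remaining 3 overlapping genes had a mean of at most 1 read. The strand setting of the counting is not given in the sources used here, so reads in shared bases cannot be assigned to a strand.

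The start region of ADAM19 is shown with those of ADAM8 and ADAM17, the members matched in the promoter table, apart from ADAM19, whose groups did not overlap. The table matched 6 of the 8 genes, and sequences are from RefSeq, build GRCh38.p14, 250 bases before to 50 after the start, 5′ to 3′ on the gene's strand. Capitals mark GC boxes (GGGCGG on either strand) and, in ADAM17, the TEAD motif GGAATG on the other strand.
ADAM19 (chr5:157575726-157576025, minus): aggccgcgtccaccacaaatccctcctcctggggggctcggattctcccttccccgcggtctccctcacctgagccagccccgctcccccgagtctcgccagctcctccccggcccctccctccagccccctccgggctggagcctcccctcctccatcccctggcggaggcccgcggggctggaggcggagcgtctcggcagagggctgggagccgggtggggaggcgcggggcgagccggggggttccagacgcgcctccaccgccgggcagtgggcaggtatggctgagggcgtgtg
ADAM8 (chr10:133276819-133277118, minus): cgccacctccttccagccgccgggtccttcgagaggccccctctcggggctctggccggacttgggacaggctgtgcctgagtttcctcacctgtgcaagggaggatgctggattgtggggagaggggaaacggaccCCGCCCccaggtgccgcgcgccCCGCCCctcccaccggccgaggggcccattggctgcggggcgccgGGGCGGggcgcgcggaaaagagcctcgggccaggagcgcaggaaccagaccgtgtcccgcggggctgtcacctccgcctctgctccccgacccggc
ADAM17 (chr2:9555781-9556080, minus): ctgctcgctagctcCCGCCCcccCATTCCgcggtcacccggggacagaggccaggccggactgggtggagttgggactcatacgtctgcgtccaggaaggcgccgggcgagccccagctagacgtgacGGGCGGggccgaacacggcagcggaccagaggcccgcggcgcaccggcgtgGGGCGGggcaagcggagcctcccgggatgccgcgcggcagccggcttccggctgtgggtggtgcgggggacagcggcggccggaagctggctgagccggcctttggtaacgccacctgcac

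The ADAM19 window held no match to any of the 6 motifs searched on both strands. It was GC-rich all the same, at 75.7% GC, against 74.0% for ADAM8, 74.7% for ADAM17 and a median of 58.7% over 35116 promoters of the same length. The GC box was found 3 times in ADAM8, 3 times in ADAM17, 3 times in ADAM12, 6 times in ADAM15 and 1 time in ADAM10, and 45.0% of all promoters held at least 1. The TEAD motif, found only in ADAM17 of the 6 windows, occurred in 14.0% of all promoters. The other motifs matched none of the 6 windows. Over all promoters, the AP-1 motif TGANTCA occurred in 7.71%. The CRE motif TGACGTCA occurred in 1.85%. The TATA box TATAAA occurred in 11.5%. The SMAD motif CAGACA occurred in 16.9%. No match overlapped another in these windows, and the counts describe letters, not binding sites.

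ADAM8 and ADAMTS1 also lay higher after si-circ_0000839 in every library, by less than ADAM19. ADAM8, a protease best known from leukocytes and invasive tumour cells, had 2.93, 2.80 and 3.04 FPKM after si-circ_0000839, against 2.20, 2.34 and 2.03 FPKM in NC, on 185 to 267 reads per library. The ratio of means was 1.33, with a log2 difference of 0.30 and a 95% interval of 0.12 to 0.48. ADAMTS1, a secreted protease that cuts the proteoglycans versican and aggrecan, had 9.80, 10.5 and 10.4 FPKM after si-circ_0000839, against 9.12, 7.56 and 8.46 FPKM in NC. Its lowest si-circ_0000839 library was only just above its highest NC library. The ratio was 1.22 and the log2 difference 0.26, with an interval of 0.087 to 0.44.

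ADAM17 and ADAM9 lay lower after si-circ_0000839. ADAM17, the tumour necrosis factor converting enzyme, had 2.48, 2.72 and 2.91 FPKM after si-circ_0000839, against 3.41, 3.20 and 3.55 FPKM in NC. The groups did not overlap. The ratio of means was 0.799, with a log2 difference of -0.24 and a 95% interval of -0.42 to -0.065. ADAM17 shares 1323 of its 10750 exonic bases with IAH1 on the opposite strand, which averaged 6.94 FPKM after si-circ_0000839 and 7.22 FPKM in NC, more than ADAM17 itself. ADAM9, or meltrin gamma, a widely expressed member, had 17.5, 21.6 and 19.5 FPKM after si-circ_0000839, against 24.9, 20.7 and 26.5 FPKM in NC. Its groups overlapped, since si-circ_0000839 replicate 2 exceeded NC replicate 2. The ratio was 0.812 and the log2 difference -0.29, with an interval of -0.51 to -0.060.

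ADAM10, ADAM15 and ADAM12 had overlapping groups. ADAM10, the main Notch sheddase, had 2.75, 3.20 and 2.99 FPKM after si-circ_0000839, against 3.25, 2.62 and 3.35 FPKM in NC. The ratio was 0.969, and the 95% interval of the log2 difference ran from -0.24 to 0.18. The sign of its log2 difference of -0.031 turned without si-circ_0000839 replicate 1 (0.012), without NC replicate 1 (0.0018) and without NC replicate 3 (0.019). ADAM15, or metargidin, whose disintegrin domain carries an integrin-binding RGD sequence in humans, had 73.5, 65.5 and 65.8 FPKM after si-circ_0000839, against 60.3, 76.4 and 60.4 FPKM in NC. Its ratio was 1.04, with an interval of the log2 difference from -0.16 to 0.28. ADAM12, or meltrin alpha, a sheddase of heparin-binding EGF, had 0.597, 0.578 and 0.656 FPKM after si-circ_0000839, against 0.345, 0.485 and 0.666 FPKM in NC, on only 66 to 125 reads per library. It was the most variable member in NC, with a coefficient of variation of 32.2% against 4.08% to 14.1% for the other 7 genes.

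In the fit across all genes, 1 of the 7 tested members was called, ADAM19, against 0.384% of all tested genes. The groups did not overlap for 4 of the 7, against 18.1% of all tested genes. In 3 of these all si-circ_0000839 libraries lay above NC (10.6% of all tested genes) and in 1 below (7.55%). Since the contrast itself led to the choice of this family, nothing is read from these shares.

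**Figure D2:**
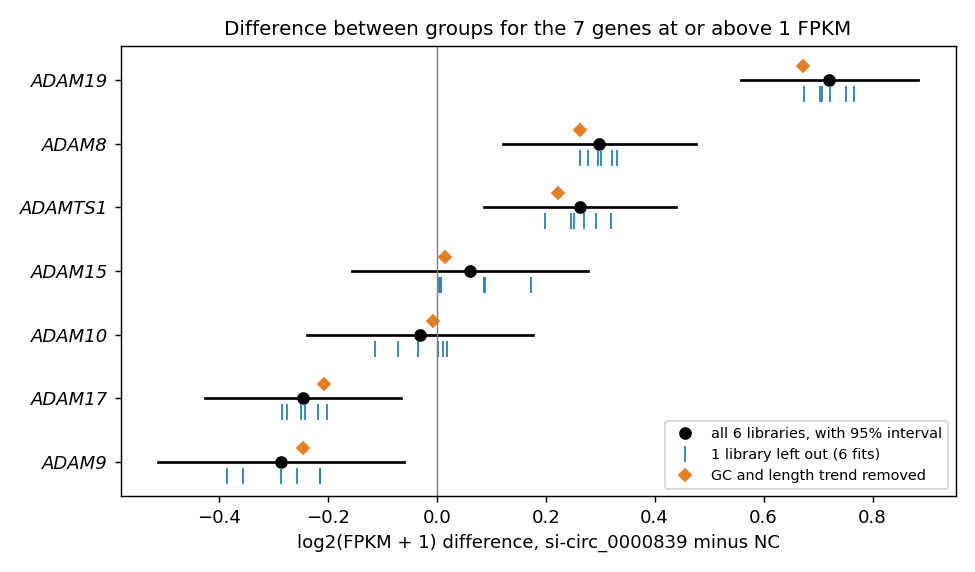
Difference in log2(FPKM + 1), si-circ_0000839 minus NC (horizontal axis), of the 7 tested genes. Black points and lines give the fit on all 6 libraries with its 95% interval, blue ticks the 6 fits with 1 library left out and orange diamonds the fit after removal of a trend on GC content and length. ADAM19 stays between 0.67 and 0.77 in all of these, and only ADAM10 has ticks on both sides of 0.

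The make-up of the protease RNA within each library was compared next. ADAM19 was 16.4%, 15.0% and 16.0% of the summed FPKM of the 8 genes after si-circ_0000839, against 10.0%, 9.84% and 9.87% in NC. ADAM15 was 53.6 ± 2.17% of the sum after si-circ_0000839 and 55.0 ± 5.02% in NC (SD, n = 3). The sum itself was 131.1, 125.7 and 125.3 FPKM after si-circ_0000839, against 115.2, 125.7 and 116.5 FPKM in NC. ADAM19 stood at 1.23, 0.872 and 1.03 times the ADAM9 level after si-circ_0000839, against 0.464, 0.597 and 0.433 times in NC. A ratio of this kind shows unequal change between both genes and not which of them changed.

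Differences between libraries of the same group followed base composition. Of 5 equal classes of tested genes by the GC content of the longest transcript, the class with the highest GC lay above its group mean by a median of 0.10 on the log2 scale in si-circ_0000839 replicate 1 and by 0.099 in NC replicate 2. The class with the lowest GC lay at -0.11 and -0.092 in these libraries. ADAM15, at 63.9% GC, deviated in the same direction, by 0.11 in si-circ_0000839 replicate 1 and 0.22 in NC replicate 2. ADAM9, at 39.4% GC, deviated by -0.14 and -0.20, and ADAM10, at 38.3% GC, by -0.086 and -0.17. ADAM8 is as GC-rich as ADAM15, at 63.8%, yet deviated by only 0.0043 and 0.066. ADAM19, at 53.7% GC, deviated by 0.093 and 0.062. In si-circ_0000839 replicate 2 the trend ran the other way, with the lowest GC class at 0.081 and the highest at -0.086. There ADAM9 deviated by 0.14, ADAM15 by -0.056 and ADAM19 by -0.091. It also ran that way, less steeply, in the other libraries. The part of base composition in the differences between the groups was not tested. With a trend on GC content and length removed from each library, the log2 difference was 0.67 for ADAM19, 0.26 for ADAM8, 0.22 for ADAMTS1, -0.21 for ADAM17 and -0.25 for ADAM9. With si-circ_0000839 replicate 1 and NC replicate 2 both left out, it was 0.70, 0.33, 0.23, -0.23 and -0.31 for the same genes.

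**Figure D3:**
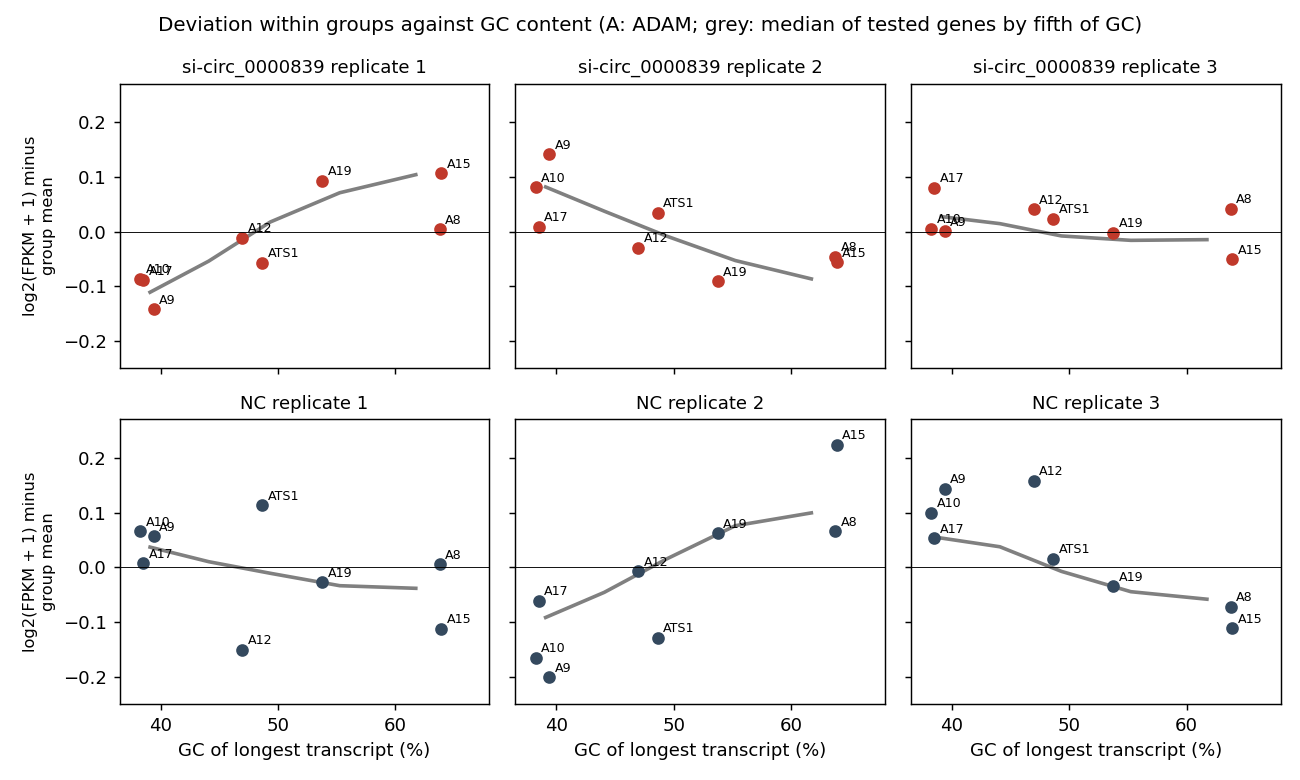
Deviation of each gene from the mean of its own group in log2(FPKM + 1) (vertical axis) against the GC content of its longest transcript in percent (horizontal axis), a panel per library, si-circ_0000839 above NC. The grey line joins the medians of the 5 classes of tested genes. It rises with GC in si-circ_0000839 replicate 1 and NC replicate 2, where ADAM15 lies above its group mean and ADAM9 and ADAM10 below. It falls with GC in the other libraries, most in si-circ_0000839 replicate 2, where ADAM15 lies below and ADAM9 and ADAM10 above.

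Of 14 further ADAM genes, 0 reached a mean of 1 FPKM. The highest, ADAM22, a neuronal member without protease activity, averaged 0.201 FPKM after si-circ_0000839 and 0.219 FPKM in NC, and 7 of the 14 had 0 reads in every library. Of 18 further ADAMTS genes, 5 were tested and 0 passed. ADAMTS9, the most abundant of these, averaged 6.02 ± 0.207 FPKM after si-circ_0000839 and 5.41 ± 0.584 in NC (limma adjusted p = 0.554). ADAMTS7 had the smallest p, with 1.52 ± 0.180 against 1.05 ± 0.114 FPKM in NC (limma adjusted p = 0.232).

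Genes that act on or around these proteases were described through 14 lists of inhibitors, processing enzymes, partners and substrates, the other ADAM and ADAMTS genes included. They held 143 genes, of which 82 were tested, 1 rose, 0 fell and 81 did not pass, against 0.384% of all tested genes called. An unadjusted limma p under 0.05 was reached by 21 of the 82, 4 of them lower after si-circ_0000839, against 12.6% of all tested genes. Among alternative fits, voom on the recovered reads called 2 genes, ITGA5 and L1CAM. Quantile normalization and TPM scaling each called ITGA5 and AXL, and removal of the GC and length trend called ITGA5, AXL and CDH2. With no filter or with a replicate block, 0 were called. The unadjusted counts were 1 in the ADAMTS list, 2 among inhibitors, 0 among convertases, 1 in the iRhom complex, 1 among tetraspanins, 3 among tail-binding proteins, 2 among EGF receptor ligands, 1 among those receptors, 1 in the Notch list, 1 in gamma-secretase, 6 among other shed proteins, 0 for versican and 2 among integrins. The median log2 difference of the 82 was 0.085, with 61 above 0, against a median of 0.0057 over all 10674 tested genes, of which 51.8% were above 0. The groups did not overlap for 32 of the 82, which is 39.0%, against 18.1% of all tested genes. In 26 of these all si-circ_0000839 libraries lay above NC (10.6% of all tested genes) and in 6 below (7.55%). The lists were chosen with earlier results of these data known, so nothing is read from these shares.

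Among inhibitors, 0 of 4 tested genes passed. TIMP1, which encodes a secreted inhibitor that also acts on ADAM10, averaged 164 ± 8.52 FPKM after si-circ_0000839 and 177 ± 18.5 in NC. RECK, a membrane-anchored inhibitor, had 1.89 ± 0.0717 against 1.32 ± 0.0342 FPKM in NC (limma adjusted p = 0.137). Of the prodomain convertases 0 of 3 passed, with FURIN at 53.2 ± 5.06 against 46.9 ± 2.43 FPKM in NC (limma adjusted p = 0.414). The iRhom complex brings ADAM17 to the cell surface, and 0 of its 3 genes passed. RHBDF2, which encodes iRhom2, averaged 5.27 ± 0.313 FPKM after si-circ_0000839 and 4.21 ± 0.168 in NC (limma adjusted p = 0.198), and FRMD8 16.6 ± 1.32 and 14.9 ± 0.612. Of the TspanC8 tetraspanins, which escort ADAM10, 0 of 5 passed. TSPAN14 was at 15.4 ± 0.867 against 13.1 ± 0.495 FPKM in NC and TSPAN17 at 28.2 ± 1.90 against 33.0 ± 4.82. Of the SH3-domain and adaptor proteins that bind ADAM tails 0 of 10 passed. SH3PXD2B, an invadopodium scaffold, stood at 11.6 ± 0.968 against 9.62 ± 0.698 FPKM in NC (limma adjusted p = 0.259) and SRC at 45.7 ± 4.69 against 43.6 ± 0.792.

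Substrates were described in the same way. Of the EGF receptor family ligands 0 of 7 passed. The 2 with an unadjusted limma p under 0.05 were both lower after si-circ_0000839, while 5 of the 7 had a log2 difference above 0. EREG, the most abundant, averaged 40.8 ± 4.01 FPKM after si-circ_0000839 and 48.9 ± 3.02 in NC (limma adjusted p = 0.250), and AREG 0.984 ± 0.294 and 1.58 ± 0.265 (limma adjusted p = 0.246). EGFR itself was at 7.86 ± 0.201 against 6.58 ± 0.899 FPKM in NC and ERBB2 at 7.69 ± 0.663 against 7.25 ± 0.266, with 0 of 2 passing. Of the Notch receptors and ligands 0 of 3 passed, with NOTCH2 at 14.0 ± 0.303 against 12.2 ± 0.379 FPKM in NC (limma adjusted p = 0.285). Of the gamma-secretase subunits, which cut what ADAM10 leaves in the membrane, 0 of 6 passed. PSENEN had 7.83 ± 0.384 against 9.34 ± 0.145 FPKM in NC (limma adjusted p = 0.219), and APH1A 83.1 ± 4.20 against 82.6 ± 9.71. In a list of other shed membrane proteins 0 of 25 passed. CDH2, the N-cadherin gene, had the smallest p at 19.8 ± 0.926 against 15.5 ± 1.55 FPKM in NC (limma adjusted p = 0.123), and the heparan sulfate carrier SDC4 was the most abundant at 183 ± 7.56 against 195 ± 11.3. VCAN, which encodes the ADAMTS1 substrate versican, averaged 11.4 ± 1.43 FPKM after si-circ_0000839 and 10.1 ± 1.54 in NC (limma adjusted p = 0.616).

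Of 8 tested integrin subunits that ADAM disintegrin domains can bind, 1 rose and 7 did not pass. ITGA5, a subunit of the fibronectin receptor, had 80.1, 70.2 and 78.9 FPKM after si-circ_0000839, against 51.7, 57.6 and 50.5 FPKM in NC (log2 difference 0.51, SE 0.080, limma adjusted p = 0.0244). It was already known to differ in these data. When si-circ_0000839 replicate 1 was left out, its limma adjusted p was 0.0903, and it was 0.103 for si-circ_0000839 replicate 3, 0.0859 for NC replicate 1 and 0.113 for NC replicate 3. ITGA3, the most abundant subunit, averaged 179 ± 16.4 FPKM after si-circ_0000839 and 171 ± 15.5 in NC (limma adjusted p = 0.790).

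**Figure D4:**
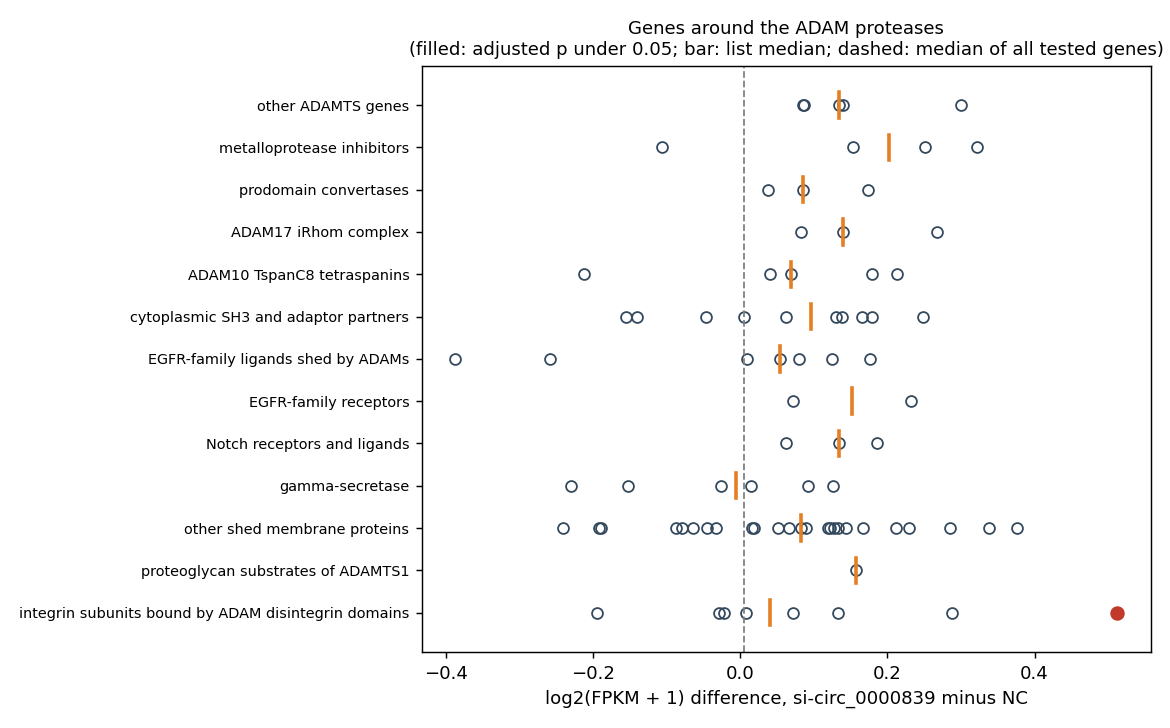
Difference in log2(FPKM + 1), si-circ_0000839 minus NC (horizontal axis), of the 82 tested genes around the proteases, a row per list. Open circles did not pass an adjusted p of 0.05, the filled circle did, orange bars are list medians and the dashed line is the median of all tested genes, 0.0057. Only ITGA5 is filled, at 0.51.

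The genes whose pattern over the 6 libraries was closest to that of ADAM19 were then sought among 9665 protein-coding tested genes, by Pearson's r of log2(FPKM + 1). These points share the libraries, their depth and the split into groups, so r is given as a description. EXOSC10, a nuclease of the nuclear exosome, had r = 0.998, with 18.5 FPKM after si-circ_0000839 and 17.4 FPKM in NC on average, a far smaller difference than that of ADAM19. GDPD5, a membrane glycerophosphodiesterase, had r = 0.997 at 6.26 against 4.79 FPKM in NC. CNTNAP1, a contactin-associated membrane protein of neurons, had r = 0.997 at 8.59 against 5.50 FPKM in NC. MLXIP, a glucose-responsive transcription factor, had r = 0.994 at 15.2 against 12.2 FPKM in NC. P2RY6, a receptor for uridine diphosphate, had r = 0.993 at 15.8 against 11.1 FPKM in NC.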

How the data were processed

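RNA was measured in 6 TPC1 libraries, 3 per group, grouped by sample titles. The authors deposited FPKM per gene with gene lengths and coordinates, per the file headers. The submitters' processing notes name HISAT2 2.0.5 and featureCounts 1.5.0-p3. Build, annotation and strand setting: not given in the sources used here. All 58735 gene IDs had the same coordinates in GENCODE release 29 (GRCh38). Multiplied by gene length, 100% of FPKM values above 0 were whole multiples of 1 read's worth, within 0.01, which gave the reads per gene. No pair of libraries of a group agreed within sampling noise (chi-square per degree of freedom 3.14 to 10.8). FPKM values are not counts, so log2(FPKM + 1) was fitted with limma 3.58.1 (R 4.3.3), with a trended prior variance and group as the only term, for genes averaging 1 FPKM or more. Tests were two-sided with Benjamini-Hochberg adjustment. The fit was tested on simulated reads with independent noise and no trend on base composition. Such reads do not show how the fit handles the trends of these libraries.

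The 8 genes, the lists and the tests were chosen with earlier results of these data known. The genes named were the members and the called genes of each list with its smallest p and its most abundant gene (4 at most). Named too were the 5 genes closest to ADAM19 and, of the genes overlapping a member, CYFIP2, NIPAL4, IAH1 and DCST1. Among the others, AC073195.1 shares 142 exonic bases with ADAM17 and AC018904.1 shares 136 with ADAM10. ADAM22 and single markers were chosen after their values were seen. GC content is that of the longest GENCODE transcript. Alternatives were other pseudocounts (0.1 and 0.5), no filter or a 5 FPKM minimum, scaling by quantiles, TPM or median ratios, a replicate block, removal of a spline trend on GC and length (5 degrees of freedom each), a robust prior variance, weights per library, voom on the recovered reads and leaving libraries out. Promoters of ADAM9 and ADAMTS1 were not used here.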

Additional observations from a re-analysis of the deposited data

How the results depend on the processing

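The log2 difference of ADAM19 was 0.67 to 0.77 over the 20 alternatives, and since this contrast led to the choice of the family, that range and the member calls are no support for it. With no filter on low values 4 of 26557 genes, 0 members and 0 partner genes were called, and the cause was not tested. With library quality weights 1623 genes, 5 members (ADAM8, ADAM9, ADAM17, ADAM19 and ADAMTS1) and 29 partner genes were called. The weights ran from 0.235 in NC replicate 2 to 5.36 in si-circ_0000839 replicate 3. They were estimated gene by gene, because estimation by restricted maximum likelihood did not converge on these libraries. The call count was 68 with a minimum of 5 FPKM, 63 with quantile normalization, 66 with a robust prior variance, 220 with the GC and length trend removed, 120 with voom and 20 with si-circ_0000839 replicate 1 and NC replicate 2 both left out. Calls were 14 higher and 27 lower in the fit as reported, 29 and 34 with quantiles, 32 and 24 with TPM scaling and 111 and 109 with the trend removed. With 1 library left out, 20 to 37 genes, 1 member and 0 to 1 partner genes were called. Partner calls were 2 with quantile normalization, 2 with TPM, 2 with voom, 3 with the trend removed and 0 with both libraries left out. With the replicate block 35 genes, 1 member and 0 partner genes were called, ITGA5 having an adjusted p of 0.0613, and with the replicate block and the trend removed 102 genes. The deviations of same-numbered libraries had r = -0.15, -0.29 and 0.15. The trends on base composition within the groups enter these values, so they cannot settle whether same-numbered libraries were paired. ADAM10 ranged from -0.11 to 0.019 with 1 library left out. Among named partner genes, values near 0 turned sign for SRC (-0.0035 to 0.14 with 1 library left out) and APH1A (-0.060 to 0.10 with 1 library left out, and -0.0081 with the trend removed, block included). Depth limits ADAM12 most, at 66 to 125 reads.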
